A study of Mus musculus with 14 samples.

Results

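The comparison of genotypes in skeletal muscle, the vastus lateralis of the thigh, rests on the 7 muscle arrays among the 14 arrays of the series. These were the arrays titled as this muscle, 4 of wild-type mice and 3 of mice with a deletion of the Prader-Willi syndrome imprinting center, called PWS-IC del. Total RNA of each muscle was extracted with Trizol, copied into biotin-labelled cRNA and hybridised to an Affymetrix whole-genome mouse array, on which a probe set, a group of short probes, reports the level of a transcript. Both genotypes were on an F1 hybrid background of FVB and B6, and the wild-type animals were littermates of the same age as the mutants. The sources used here do not give the age, the extent of the deletion or the parent that passed it on. The labels call the arrays biological replicas, and the p-values measure the spread between them. The 7 whole-brain arrays of the series were not used.

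In an imprinted domain a gene is expressed from the copy of one parent only. The Prader-Willi domain holds a cluster of genes expressed from the paternal chromosome, among them Snrpn and Snurf, Ndn, Magel2, Mkrn3, Peg12 and the long noncoding transcript Snhg14, which carries small nucleolar RNAs, and next to them Ube3a and Atp10a, which are known for maternal expression. The imprinting center at the Snrpn start controls which copy is active. Prader-Willi syndrome follows loss of the paternally expressed genes and includes low muscle tone. The title of the series names mitochondrial dysfunction, so the genes of energy metabolism were examined together with those of contraction, muscle growth, the clock and the cell types of the tissue. Values are log2(intensity + 16), a scale with a floor of 4, and each difference is PWS-IC del minus wild-type, tested with limma over all genes and adjusted by Benjamini-Hochberg.

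The arrays were alike in depth, with a median intensity of 88.7 to 96.4 and correlations between arrays of 0.974 to 0.993. The 8 fibre markers identified skeletal muscle in all 7 arrays: Ckm, the muscle creatine kinase, lay at 13.68 to 13.88 and Myh4, a fast myosin heavy chain, at 13.83 to 13.98. Their summed intensity was 114502 to 117639 in wild-type and 108090 to 113444 in PWS-IC del arrays, which did not overlap. Xist was at 10.55 to 11.01, and the Y-linked Eif2s3y and Kdm5d at no more than 5.20. A group of arrays stood apart in transcripts of other tissues. Snap25, a protein of nerve endings, was at 4.00, 9.23, 5.18 and 7.79 in wild-type 1 to 4 and at 5.14, 5.75 and 6.96 in PWS-IC del 1 to 3. The summed intensity of the 6 brain markers ranged from 864 to 3385 in wild-type and from 870 to 1457 in PWS-IC del arrays, highest in wild-type 2 and wild-type 4. Wild-type 2 also held transcripts of milk proteins. Csn3, a casein, was at 12.07 there and at 5.79 to 6.42 in the other arrays, and Csn1s1 was at 11.84 against 4.91 to 5.45. These casein genes were chosen after their values were seen.

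Fat and slow fibre transcripts differed between arrays of the same genotype as well. A list score is the mean deviation of its members from their mean over the 7 arrays. For the 13 fat cell markers it was highest in PWS-IC del 2 at 1.06, wild-type 2 at 0.71 and PWS-IC del 1 at 0.46, and lowest in wild-type 1 at -0.99. For the slow fibre genes it was -1.18 in wild-type 2, whereas wild-type 1, 3 and 4 lay at 0.40 to 0.58, with 0.55, -0.53 and -0.31 in the mutants. In bulk tissue, fewer cells of a type and less RNA per cell cannot be told apart.

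**Figure D1:**
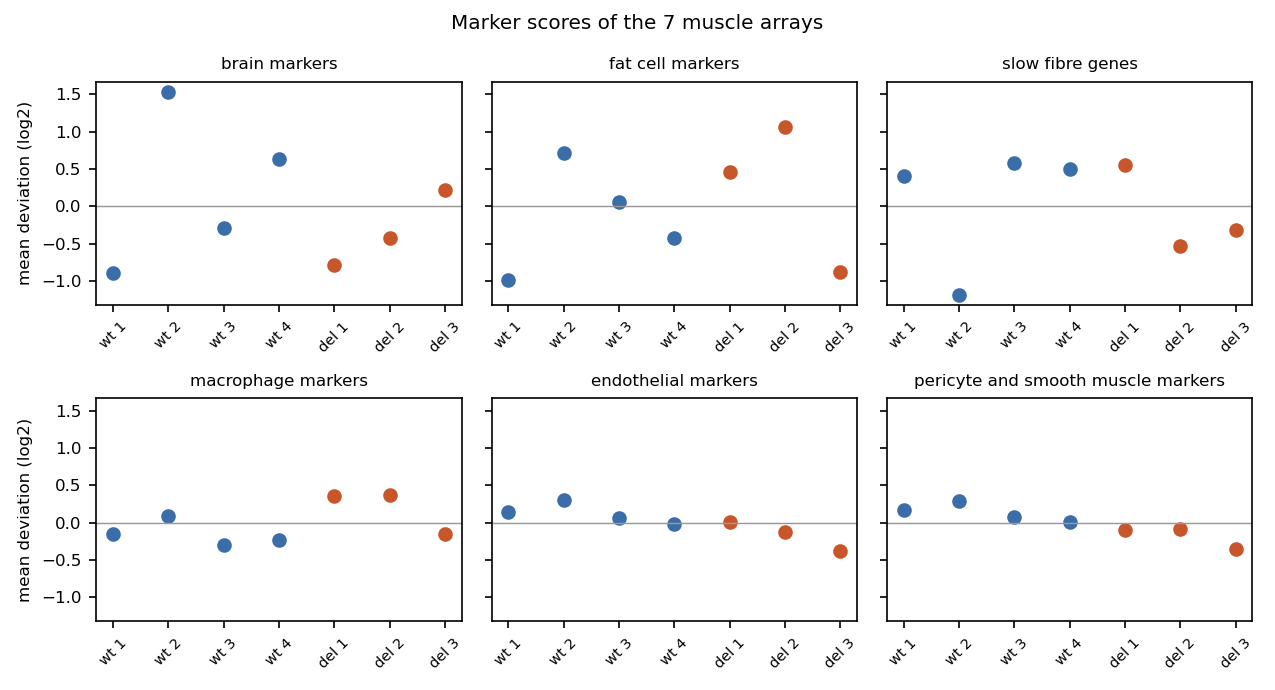
Scores of 6 marker lists in each of the 7 muscle arrays (wt, wild-type, blue; del, PWS-IC del, orange), as the mean deviation of the tested members from their mean over the arrays, in log2 units. Wild-type 2 is highest for brain markers and lowest for slow fibre genes, and the groups overlap in every panel except that of pericyte and smooth muscle markers.

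The transcripts of the targeted domain were examined first, as a check of the labels. Their start sites lie on chromosome 7, and the 250 bases upstream of them are shown here because these are the promoters of the transcripts that fell furthest. The sequences are those of RefSeq for build GRCm38.p6, printed 5′ to 3′ on the strand of the gene, with each CG dinucleotide, the base pair step that carries DNA methylation, in capitals. Snurf shares its start with a Snrpn transcript at chr7:60005200-60005449 on the minus strand, and the window holds 3 CG. The start of Snhg14, which RefSeq also gives to an upstream Snrpn transcript, has its window at chr7:60450178-60450427 on the minus strand, with 2 CG. The window of Ndn lies at chr7:62348027-62348276 on the plus strand and holds 5 CG. The median of all 32851 such windows is 6 CG.
Snurf and Snrpn: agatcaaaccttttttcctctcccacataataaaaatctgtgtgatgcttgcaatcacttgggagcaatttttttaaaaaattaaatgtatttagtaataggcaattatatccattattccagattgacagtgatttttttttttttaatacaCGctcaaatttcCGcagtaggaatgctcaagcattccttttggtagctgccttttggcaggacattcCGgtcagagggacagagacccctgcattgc
Snhg14 and upstream Snrpn: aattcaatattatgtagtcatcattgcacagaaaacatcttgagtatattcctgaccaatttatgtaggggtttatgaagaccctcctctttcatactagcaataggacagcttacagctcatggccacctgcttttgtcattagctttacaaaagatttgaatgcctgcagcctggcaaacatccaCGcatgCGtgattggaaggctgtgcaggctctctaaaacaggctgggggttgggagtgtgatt
Ndn: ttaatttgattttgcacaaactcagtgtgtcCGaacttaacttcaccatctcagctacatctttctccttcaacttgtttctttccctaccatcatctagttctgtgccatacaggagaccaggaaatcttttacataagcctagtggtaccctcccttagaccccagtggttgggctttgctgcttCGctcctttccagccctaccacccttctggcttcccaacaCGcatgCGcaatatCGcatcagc

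Snrpn encodes SmN, a core protein of small nuclear ribonucleoproteins, and Snurf is a small protein read from the same transcript. The probe sets annotated to both were tested in a fit over all 33778 probe sets above the 0.25 quantile of mean level, of which 48 passed an adjusted p of 0.05, or 0.142%, with 40 lower (0.118%) and 8 higher (0.0237%). The probe set with the largest difference was at 9.16, 9.11, 9.10 and 9.47 in the wild-type arrays and at 4.23, 4.03 and 4.00 in the PWS-IC del arrays. The mutants lay at the floor and the groups were far apart, by 5.12 log2 units, a size limited by the floor (limma, adjusted p = 2.78e-07). Another went from 10.01 to 10.19 in wild-type to 8.01 to 8.11 in mutants. A smaller gap was that of a probe set that fell by 0.85 and kept 9.72 to 9.98 in the mutants. Of the 6 probe sets annotated to Snurf and Snrpn, the 4 that were tested fell, and the 2 dim ones differed by -0.82 and -0.04. The probe set annotated to Snrpn alone was at 7.07 to 7.16 in wild-type arrays and 6.37 to 6.97 in mutants. These groups did not overlap, but the difference of -0.39 did not pass over all genes (limma, adjusted p = 0.324).

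Ndn encodes necdin, a MAGE-family protein that restrains growth and favours differentiation. Its brightest probe set in wild-type muscle was at 8.71, 9.54, 8.85 and 9.16 in wild-type and at 6.23, 6.31 and 5.28 in PWS-IC del muscle. All 5 tested probe sets of Ndn fell, with differences of -3.22 to -1.27 on the log2 scale, and the 3 dim ones had differences of -2.03, -1.82 and -0.32 without overlap of the groups. The probe set that represents Ndn in the fit over genes gave the smallest of the 5 tested differences. It was at 8.74, 8.99, 8.69 and 8.92 in wild-type and 7.47, 7.73 and 7.50 in mutants. Ndn was highest in wild-type 2 and wild-type 4, the arrays with the most brain transcripts, and the part of these transcripts in the difference was not tested. Without wild-type 2 and wild-type 4, 4 of the 5 tested probe sets of Ndn still passed, with differences of -2.96 to -2.84, and that of the fit over genes did not (limma, adjusted p = 0.0616). In the same reduced fit the Snurf and Snrpn probe set at the floor in mutants differed by -5.04 (adjusted p = 1.63e-05), and 2 of the 4 tested still passed.

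Snhg14 runs across the domain and, antisense, over Ube3a. It was at 8.16, 8.41, 8.34 and 8.24 in wild-type and at 6.13, 5.92 and 6.23 in PWS-IC del muscle. The arrays of each genotype lay close together and far from the other, and the fall was 4.58-fold (limma, adjusted p = 1.44e-04). A second probe set fell 4.00-fold, and the third was near the floor in both groups, at 4.00 to 5.23. C230091D08Rik, a name that RefSeq lists under Snhg14, was at 10.24 to 10.39 in wild-type arrays and 10.41 to 10.53 in mutants (adjusted p = 0.497).

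The other paternally expressed genes were dim in muscle. Peg12, related to the Frat genes of Wnt signalling, was at 4.58 to 5.08 in wild-type and at 4.00 in the 3 mutant arrays, too dim to be tested but without overlap. Magel2, a relative of Ndn, was at 6.23 to 6.53 in wild-type arrays and 6.23 to 6.55 in mutants, a difference of -0.03. Mkrn3, a ring-finger gene, was not tested, with 4.03 to 4.86 in wild-type arrays and 4.13 to 4.35 in mutants. Of the 11 measured paternally expressed genes, 6 were bright enough to be tested. Of these, 4 had negative differences and 2, Snhg14 and Ndn, passed the threshold as lower, against 0.110% of all genes. The 6 include C230091D08Rik. They leave out the probe sets annotated to Snurf and Snrpn together, of which the 4 tested fell. The dim noncoding transcripts Ipw, Gm26504 and B230209E15Rik lay between 4.00 and 6.20 in all arrays. Ipw, tested over probe sets, differed by 0.49 with overlap (limma, adjusted p = 0.531).

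**Figure D2:**
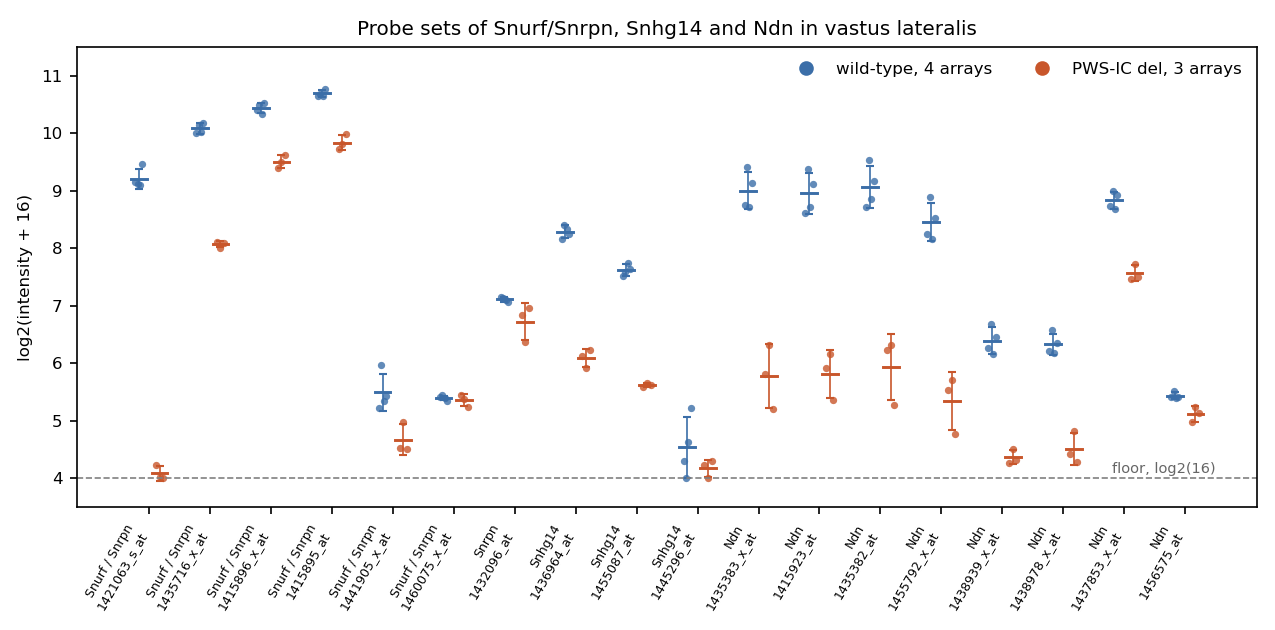
Levels of the 18 probe sets of Snurf with Snrpn, Snrpn alone, Snhg14 and Ndn, as log2(intensity + 16), in 4 wild-type (blue) and 3 PWS-IC del (orange) arrays. Points are arrays, bars are means, whiskers are 1 SD and the dashed line is the floor of 4. The largest gap is that of a probe set of Snurf and Snrpn, from 9.10 to 9.47 in wild-type to 4.00 to 4.23 in mutants.

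Ube3a and Atp10a, known for maternal expression, and the neighbours of the domain were not called. Which parent's copy was expressed in muscle was not measured. Ube3a, a ubiquitin ligase, was at 11.42 to 11.64 in wild-type and 11.64 to 11.73 in PWS-IC del muscle, a difference of 0.18 (limma, adjusted p = 0.422). Its 6 probe sets differed by -0.26 to 0.45, 4 of them above 0. Atp10a, a phospholipid flippase, differed by 0.25 (adjusted p = 0.651). Of 11 tested flanking genes that are not imprinted, 0 passed in limma. Of the 11, 2 had an unadjusted p under 0.05, against 11.9% of all genes. Herc2, a large ubiquitin ligase, was at 10.47 to 10.67 in wild-type arrays and at 10.93 to 11.10 in mutants, without overlap (adjusted p = 0.105). Among 22 tested imprinted genes elsewhere in the genome 0 passed, and 2 had an unadjusted p under 0.05. Only 1 member, 4.55% of the list against 12.2% of all genes, had groups that did not overlap. This was Kcnq1ot1, an imprinted noncoding RNA of another domain on chromosome 7. It was at 8.16 to 8.49 in wild-type arrays and 8.67 to 8.94 in mutants (adjusted p = 0.180).

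Over all genes, 17 of 13645 tested, or 0.125%, passed an adjusted p of 0.05 in limma, 15 lower (0.110%) and 2 higher (0.0147%) in PWS-IC del muscle. At an unadjusted p under 0.05 there were 1629 genes, or 11.9%, of which 815 were higher and 814 lower. This 11.9% is the share beside which every list count at that limit is to be read. The groups did not overlap for 12.2% of all genes, 866 higher and 799 lower, so the excess of lower genes was seen among the calls and not in these wider counts. For each of the 17 genes the groups did not overlap. They were chosen by p on the same arrays, so this adds no support. The share of higher genes among the calls was 11.8%, and it was 25.0% of 44 calls after quantile normalization, with 11 higher and 33 lower. After median centring there were 7 higher and 18 lower, and with array quality weights, in the muscle genotype comparison, 1052 higher and 783 lower. With the mean of all probe sets of a gene in place of the brightest, the calls of Ddah1, Ikzf4, Ptger4, Rcan2 and Frzb were lost, with adjusted p-values in limma of 0.109, 0.203, 0.0761, 0.0708 and 0.127. The calls moved with single arrays: there were 8, 24, 6 and 6 without wild-type 1, 2, 3 and 4, and 12, 6 and 11 without PWS-IC del 1, 2 and 3. Snhg14, Gm5802, Ddah1, Ndn, Kazald1 and Cyfip2 passed in all 7 of these fits. The other 11 calls were each lost in at least 4 of the 7, and Frzb in all of them. Without wild-type 2, the array with brain, fat and casein transcripts, 14 of the 17 remained called. Without both wild-type 2 and wild-type 4 there were 4 calls, Snhg14, Gm5802, Cyfip2 and Actc1, with the other 2 wild-type arrays left.

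**Figure D3:**
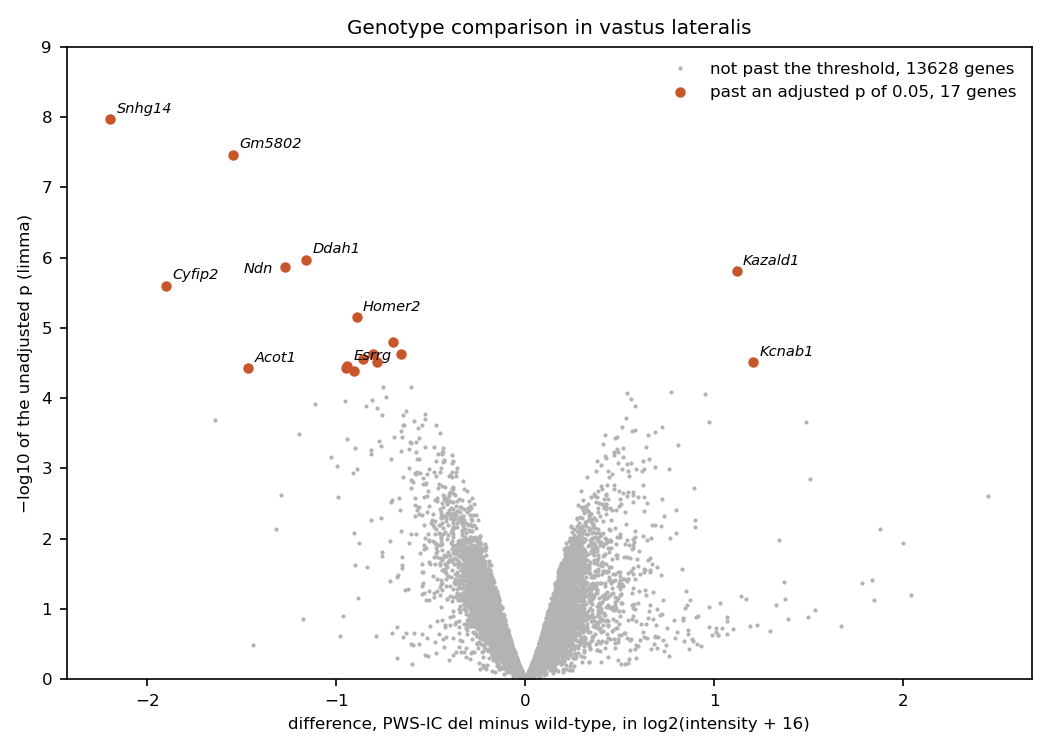
Difference in log2(intensity + 16), PWS-IC del minus wild-type, against the −log10 of limma's unadjusted p for the 13645 genes tested. Of the 17 genes past an adjusted p of 0.05 (orange), 15 lie to the left and 2, Kazald1 and Kcnab1, to the right. The largest positive differences are not among the calls.

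The largest fall outside the domain was that of Cyfip2, on chromosome 11. It encodes a subunit of the WAVE complex, which drives actin branching downstream of Rac and binds the fragile X protein. Cyfip2 was at 8.15, 8.89, 8.26 and 8.23 in wild-type and at 6.54, 6.50 and 6.40 in PWS-IC del muscle. It was highest in wild-type 2, the array with the most brain transcripts, and the other wild-type arrays lay above every mutant. The part of brain transcripts in this difference was not tested. The fall was 3.74-fold (limma, adjusted p = 0.00567), and a second tested probe set fell 2.33-fold. Of 19 tested genes around the WAVE complex, Cyfip2 was the only one that passed. Fxr2, a relative of the fragile X protein, differed by -0.25 (adjusted p = 0.413) and the haematopoietic subunit Nckap1l by 0.27.

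Gm5802 fell 2.92-fold (limma, adjusted p = 2.33e-04). It was at 9.44, 9.51, 9.50 and 9.67 in wild-type and at 8.01, 8.03 and 7.91 in mutants. RefSeq gives Gm5802 as a pseudogene on chromosome 14, and its only probe set carries the suffix x, which marks probes that can match other transcripts, so the source of this signal is uncertain.

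In nitric oxide synthesis the gene that fell was Ddah1, whose enzyme degrades asymmetric dimethylarginine, an inhibitor of nitric oxide synthases. Ddah1 was at 9.19, 9.20, 9.34 and 9.20 in wild-type and at 7.94, 8.25 and 8.03 in PWS-IC del muscle. The wild-type arrays were tightly grouped, and the fall was 2.24-fold (limma, adjusted p = 0.00421). All 5 probe sets of Ddah1 had negative differences, from -1.16 to -0.16, and 1 passed over all probe sets. Of the 16 tested genes of the list, Ddah1 was the only one past the threshold. Slc7a2, a transporter of arginine, was at 10.71 to 10.87 in wild-type arrays and 11.16 to 11.44 in mutants (adjusted p = 0.0948). Nos2, the inducible synthase, was dim at 5.97 to 6.05 and 6.17 to 6.49, and Gucy1a1, a subunit of the nitric oxide receptor, differed by -0.49 (adjusted p = 0.279).

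Homer2 and Rcan2, which act on calcium signalling, both fell. Homer2 is a scaffold that links calcium channels and binds NFAT, and it was at 9.99, 9.94, 10.02 and 10.03 in wild-type and 9.29, 9.05 and 8.97 in mutants. The wild-type arrays were tightly grouped above the mutants, and the fall was 1.86-fold (limma, adjusted p = 0.0136). A second probe set of Homer2 fell 1.80-fold. Rcan2, a regulator of the phosphatase calcineurin, was at 10.70, 10.53, 10.57 and 10.56 in wild-type and 9.97, 9.61 and 9.61 in mutants (adjusted p = 0.0322). The second probe set of Rcan2 differed by -0.61 without overlap (limma, adjusted p = 0.201). Homer2 and Rcan2 were 2 calls among the 18 tested calcineurin and Homer genes, against 0.125% of all genes. Of the 18, 12 had positive differences, against 54.2% of all genes, and 6 negative ones. Dyrk1a, a kinase that opposes NFAT, differed by 0.20 and the catalytic subunit Ppp3ca by 0.15, neither past the threshold.

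The genes that rose were Kcnab1 and Kazald1. Kcnab1, a beta subunit of Shaker-type potassium channels, was at 8.80, 8.44, 8.91 and 8.82 in wild-type and at 9.88, 10.23 and 9.74 in PWS-IC del muscle. Every mutant array exceeded every wild-type array, and the rise was 2.31-fold (limma, adjusted p = 0.0322), with 2.68-fold at the second probe set. It was the only one of 14 tested ion channel genes that passed. Kcnc1, a fast-gated potassium channel, was at 10.62 to 10.75 in wild-type arrays and 10.36 to 10.38 in mutants (adjusted p = 0.169). The chloride channel Clcn1, which sets the resting conductance of the fibre, differed by -0.22 (adjusted p = 0.402).

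Kazald1 encodes a secreted protein with an insulin-like growth factor binding domain. It was at 7.17, 7.14, 7.27 and 7.25 in wild-type and at 8.37, 8.14 and 8.47 in mutants, a 2.17-fold rise (limma, adjusted p = 0.00421). Of the 22 tested genes of the insulin-like growth factor axis, Kazald1 was the only one past the threshold, and 3 in all lay higher in every mutant array, against 6.35% of all genes. The others were the binding proteins Igfbp3, at 8.10 to 8.43 and 8.51 to 9.64, and Igfbp6, at 10.26 to 10.29 and 10.47 to 11.08 (adjusted p = 0.279 for each). Both were highest in PWS-IC del 1. Grb14, an adaptor that inhibits the insulin receptor, was at 9.33 to 9.61 in wild-type arrays and 8.91 to 9.09 in mutants (adjusted p = 0.106).

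Frzb, a secreted antagonist of Wnt ligands, fell 1.93-fold, from 8.34, 8.62, 8.39 and 8.70 to 7.64, 7.68 and 7.38 (limma, adjusted p = 0.0322). Its wild-type values were highest in wild-type 4 and wild-type 2, and the groups did not overlap. At the second probe set of Frzb the groups overlapped, with a difference of -0.54 (adjusted p = 0.339). Wif1, another secreted antagonist, had the opposite sign, with 7.58, 7.0, 7.42 and 7.94 in wild-type and 8.17, 8.43 and 8.53 in mutants (adjusted p = 0.159). Of 11 tested secreted Wnt antagonists 7 were positive and 4 negative, with a median of 0.11.

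Of the remaining calls, Acot1 and Esrrg belong to lipid and energy metabolism. Acot1, a cytosolic thioesterase that releases fatty acids from coenzyme A, was at 7.04, 7.05, 7.19 and 6.91 in wild-type and 6.10, 5.36 and 5.29 in PWS-IC del muscle. The mutants were spread, with PWS-IC del 1 above the other two, and the fall was 2.76-fold (limma, adjusted p = 0.0322). A probe set that Acot1 shares with its neighbour Acot2 differed by -0.71 (adjusted p = 0.125), and near-identical family members can share signal. Of 11 tested thioesterases 9 were negative, against 45.6% of all genes, and Acot1 alone passed. Acot2, the mitochondrial form, was at 8.09 to 8.99 in wild-type arrays and 7.60 to 8.23 in mutants, with overlap (adjusted p = 0.296).

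Esrrg encodes an estrogen-related nuclear receptor that drives oxidative genes. It was at 8.80, 8.62, 9.01 and 8.73 in wild-type and at 8.0, 7.89 and 7.65 in mutants, a 1.92-fold fall (limma, adjusted p = 0.0322). A second of its 3 probe sets fell 1.67-fold and the third differed by -0.34 without overlap. St3gal5, the enzyme that makes the ganglioside GM3, fell 1.73-fold and its other probe set 1.92-fold. Its wild-type arrays were at 9.64 to 9.81 and its mutants at 8.82 to 9.13. As3mt, an arsenic methyltransferase, was at 9.29 to 9.46 in wild-type arrays and 8.66 to 8.77 in mutants. Each of these groups was separate by more than its own range.

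Ptger4, a receptor of prostaglandin E2, was at 7.33 to 7.66 in wild-type arrays and 6.61 to 6.75 in mutants. Ikzf4, a zinc-finger factor of the Ikaros family, was at 6.98 to 7.18 and 6.27 to 6.40, and at its other tested probe set the groups overlapped, with a difference of -0.09 (limma, adjusted p = 0.857). That probe set represents Ikzf4 when the choice is made over all 14 arrays, and the call is then lost. Col24a1, a fibrillar collagen, was at 7.09 to 7.51 and 6.22 to 6.52. These 3 fell by 0.81, 0.70 and 0.91 on the log2 scale, with adjusted p-values in limma of 0.0322, 0.0270 and 0.0328.

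**Figure D4:**
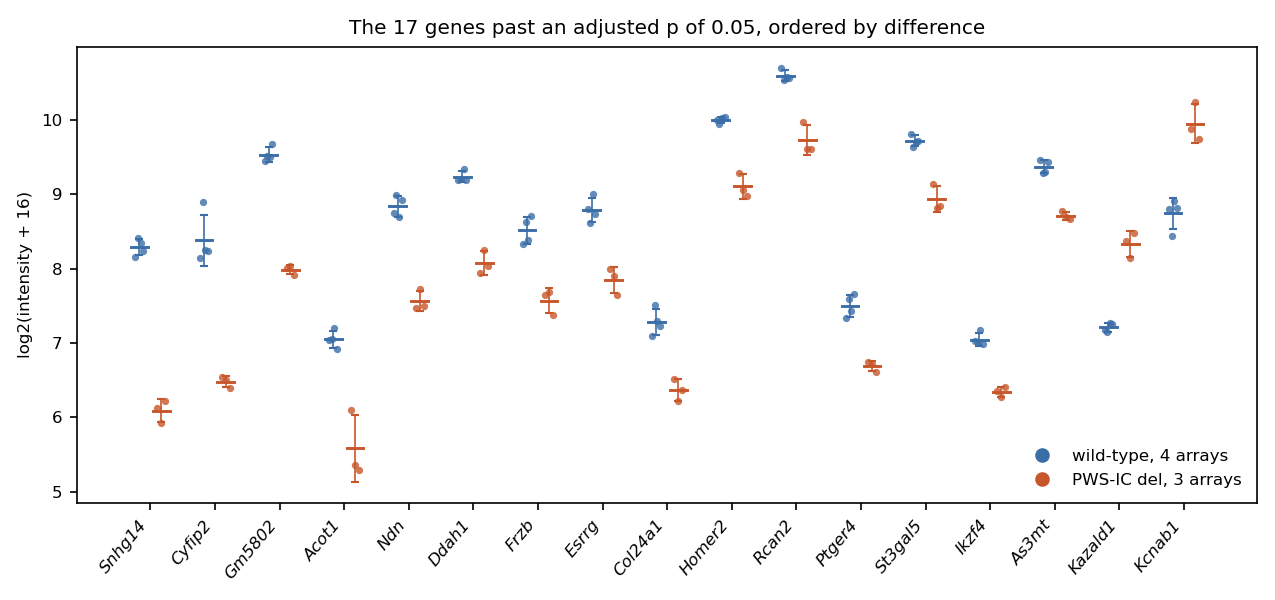
Levels of the 17 genes past an adjusted p of 0.05, as log2(intensity + 16), in 4 wild-type (blue) and 3 PWS-IC del (orange) arrays, ordered by difference. Points are arrays, bars are means and whiskers are 1 SD. The groups do not overlap for any of them, and Cyfip2 in wild-type 2, at 8.89, stands above the other wild-type arrays.

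The 13 genes next in order of p had adjusted p-values of 0.0501 to 0.0619 in limma and are given by their values. Actc1, the cardiac alpha-actin, was at 12.50, 12.99, 12.39 and 12.66 in wild-type and at 13.58, 13.63 and 13.54 in PWS-IC del muscle. The mutant arrays were tightly grouped above the wild-type ones, and over probe sets Actc1 passed with a 1.93-fold rise (adjusted p = 0.0492). Gadd45a, a growth arrest gene of atrophying muscle, was at 8.59 to 8.84 in wild-type arrays and 9.35 to 9.73 in mutants. Crot, a peroxisomal carnitine acyltransferase, was at 9.44 to 9.52 and 9.90 to 10.15. Both had positive differences, as did Ociad2 at 0.54, also with 0.53 at its second probe set, and Enho, which encodes the secreted peptide adropin, at 0.58.

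Negative differences were those of Fmo2, a flavin monooxygenase, at -0.96, Kcnq5, a potassium channel of the M current, at -0.78, Rassf9 at -0.75 and Zfp385b at -1.11. The 3 probe sets of Kcnq5 differed by -0.84 to -0.78, whereas the other 2 of Zfp385b differed by 0.04, with overlap, and -0.25. Likewise, 1 of the other 3 probe sets of Enho differed by 0.50, and 2 differed by -0.01 and 0.09 with overlap. Spata31d1d, Tmem260, Gdap10 and Thsd7b differed by -0.60, -0.74, -0.81 and -0.84. The other probe sets of Thsd7b differed by -0.15 and 0.01, with overlap. For each of the 13 genes the groups did not overlap, which adds no support, since they were chosen by p on the same arrays.

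The fit over probe sets called further genes. In the fit over genes these had another representative probe set, a narrow margin or a level too dim to be tested. Tbc1d1 restrains glucose uptake into muscle, and 1 of its 4 probe sets was at 8.37, 8.59, 8.14 and 8.27 in wild-type and at 7.09, 7.40 and 7.19 in mutants. It fell 2.17-fold (limma, adjusted p = 0.0174), while the other 3 probe sets of Tbc1d1 differed by -0.37 to -0.15. Slc25a30, a mitochondrial carrier, fell 1.69-fold at 1 of 4 tested probe sets, and all 5 of its probe sets were negative. Egfl6, an extracellular matrix protein, was too dim for the fit over genes. It rose 1.65-fold from 5.33 to 5.49 in wild-type to 6.09 to 6.17, and C1qtnf3, a secreted relative of adiponectin, rose 1.80-fold. A930033H14Rik and Hivep3, a zinc-finger factor, fell 1.80-fold and 1.55-fold. Of the 48 probe sets called, 35 named a single gene, 25 genes in all, 4 were annotated to Snurf and Snrpn together, and 9 had no gene name here. One of these unnamed probe sets rose 2.28-fold, from 5.64 to 6.32 in wild-type to 7.07 to 7.31.

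The regulators of mitochondrial biogenesis were examined as a group because of the series' title. Of 29 tested, Esrrg alone passed, 18 were negative and 11 positive, with a median of -0.04 against 0.015 for all genes. The groups did not overlap for 5 lower and 2 higher members, 24.1% of the list against 12.2% of all genes. Ppargc1a, the coactivator PGC-1alpha, was at 9.69, 9.53, 9.60 and 9.59 in wild-type and at 9.27, 9.33 and 9.25 in PWS-IC del muscle. The gap was small but clean, 1.25-fold, and not past the threshold (limma, adjusted p = 0.161). Its relative Ppargc1b was at 10.27 to 10.59 and 9.79 to 10.20 (adjusted p = 0.294), and Thra, a thyroid hormone receptor, at 10.03 to 10.21 and 9.66 to 9.84 (adjusted p = 0.197). Nrip1, a corepressor of oxidative genes, differed by 0.39. The factors that copy and transcribe mitochondrial DNA included Tfam, at 10.08 in every wild-type array and 10.01 to 10.11 in mutants.

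The respiratory chain itself held no call. In complex I, 0 of 34 tested genes passed in limma, with a median of 0.01. Of the 34, 2 had an unadjusted p under 0.05, against 11.9% of all genes. ND5, encoded by mitochondrial DNA, was at 13.85 to 13.92 in wild-type arrays and 13.67 to 13.72 in mutants (adjusted p = 0.340), and Ndufv1, a flavoprotein subunit, differed by -0.19 (adjusted p = 0.367). Of 45 genes of complexes II to V, 0 passed and 0 had an unadjusted p under 0.05, with differences from -0.10 to 0.38. Of 77 mitochondrial ribosome genes 55 had positive differences, 71.4% against 54.2% of all genes, and the median was 0.07. Of the 77, 0 passed in limma and 7 had an unadjusted p under 0.05, against 11.9% of all genes. The groups did not overlap for 11 higher and 2 lower members, 16.9% against 12.2% of all genes. Mrpl50 had the largest difference at 0.29, with 9.64 to 9.97 in wild-type arrays and 10.04 to 10.27 in mutants. Fusion and fission genes had a median of -0.005, and Oma1, a protease of the inner membrane, differed by -0.24 and Fis1, a fission receptor, by 0.19.

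Fuel use showed more spread. In fatty acid uptake and oxidation 23 of 38 genes were negative and 0 passed in limma. Of the 38, 7 had an unadjusted p under 0.05, against 11.9% of all genes. Hadha, the alpha subunit of the trifunctional protein, was at 12.04 to 12.29 in wild-type and 11.69 to 11.92 in PWS-IC del muscle (adjusted p = 0.185), and Acadl, a long-chain dehydrogenase, at 12.80 to 12.97 and 12.55 to 12.71. In glycolysis 23 of 30 genes were positive and 0 passed, with 7 at an unadjusted p under 0.05. The groups did not overlap for 8 higher and 2 lower members of glycolysis and glycogen use, 33.3% of the list against 12.2% of all genes. The higher ones included Gpd2 at 0.34, Pfkfb4 at 0.31 and Phkg1 at 0.26. Ldhb, the lactate dehydrogenase of oxidative fibres, had the opposite sign, with 11.79, 11.49, 11.98 and 11.87 in wild-type and 11.32, 10.77 and 10.52 in mutants (adjusted p = 0.122). Idh2, of the citric acid cycle, was at 11.75 to 12.17 and 11.08 to 11.76, with overlap at PWS-IC del 1 (adjusted p = 0.201). Of 30 pyruvate and citric acid cycle genes 0 passed, and 2 had an unadjusted p under 0.05, against 11.9% of all genes.

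In cholesterol and fatty acid synthesis 19 of 20 members had positive differences, against 54.2% of all genes, and the median was 0.25. Of the 20, 0 passed in limma and 2 had an unadjusted p under 0.05, against 11.9% of all genes. Their score was highest in wild-type 2, at 0.82, and PWS-IC del 2, at 0.70, the arrays highest in fat cell markers, whose summed intensity spanned 43706 to 73658 in wild-type arrays and 38538 to 77532 in mutants. The part of fat in these values was not tested. Srebf1, the transcription factor of fat synthesis, was the member without overlap, at 10.05 to 10.60 and 10.67 to 11.10 (adjusted p = 0.279). It made up 5% of the list, against 12.2% of all genes. Antioxidant and metallothionein genes had positive differences in 22 of 24 cases, 91.7% against 54.2% of all genes, with 0 past the threshold and 4 at an unadjusted p under 0.05. The groups did not overlap for 12.5% of them, against 12.2% of all genes. Their score was highest in PWS-IC del 1, at 0.232. In PWS-IC del 3, at -0.075, it lay within the wild-type range of -0.128 to -0.026. The metallothionein Mt2, which binds zinc, was at 8.38 to 8.68 in wild-type arrays and 8.82 to 9.13 in mutants (adjusted p = 0.161).

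In the contractile apparatus, fast fibre genes held no call. Of 15 tested fast fibre genes 0 passed in limma, with a median of -0.003. Of the 15, 1 had an unadjusted p under 0.05, against 11.9% of all genes. Myh1, a fast myosin, was at 13.94 to 14.02 in wild-type and 13.75 to 13.84 in PWS-IC del muscle, a small gap of -0.17 near the top of the range. Slow fibre genes varied between arrays of one genotype. Myh7, the slow myosin, was at 11.34, 8.82, 12.03 and 11.80 in wild-type and 12.20, 10.59 and 10.95 in mutants. Of 17 slow fibre genes 0 passed, 4 had an unadjusted p under 0.05, and in these 4, lower in mutants, the groups did not overlap, 23.5% of the list against 12.2% of all genes. Casq2, the calsequestrin of slow and cardiac muscle, was at 9.85, 9.22, 9.64 and 9.51 in wild-type and 8.97, 8.29 and 8.32 in mutants (adjusted p = 0.103). Its lowest wild-type value was in wild-type 2, the array with the fewest slow fibre transcripts. Pln, which inhibits the calcium pump, was at 8.23 to 8.49 and 7.85 to 8.10, and Mb, myoglobin, at 13.57 to 13.76 and 13.37 to 13.50.

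Of 28 sarcomere and Z-disc genes 18 were negative and 0 passed over genes. Of the 28, 7 had an unadjusted p under 0.05, against 11.9% of all genes. Mybpc1, a myosin binding protein, was at 13.12 to 13.50 in wild-type arrays and 12.62 to 12.95 in mutants, and Actn2, an alpha-actinin of the Z-disc, at 12.53 to 13.08 and 12.23 to 12.48. Both pairs of groups were separate (adjusted p = 0.149 and 0.197). In excitation-contraction coupling 0 of 18 passed and 2 had an unadjusted p under 0.05. Mrln encodes myoregulin, a small peptide that inhibits the calcium pump, and was at 10.96, 10.43, 10.78 and 10.73 in wild-type and 11.44, 11.32 and 11.29 in mutants (adjusted p = 0.106). The ryanodine receptor Ryr1 and the voltage sensor Cacna1s differed by -0.12 and 0.04.

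Genes of growth, wasting and the nerve contact held no call beyond those named. Of 20 myogenic regulators, 26 atrophy and autophagy genes and 20 neuromuscular junction genes, 0 passed in limma in each. Counts at an unadjusted p under 0.05 were 1, 4 and 3, where the share over all genes was 11.9%. Dach2, which links nerve activity to receptor genes, was at 8.94, 8.36, 8.87 and 8.67 in wild-type and at 7.99, 7.29 and 7.25 in PWS-IC del muscle (adjusted p = 0.0831). Agrn, the organizer of the postsynaptic membrane, was at 8.20 to 8.46 and 7.87 to 7.93 (adjusted p = 0.0964). Both were separate between groups, the only 2 such members of this list, 10% against 12.2% of all genes. Of the 20 members 15 were negative, against 45.6% of all genes. Chrne, the epsilon subunit of the adult acetylcholine receptor, differed by 0.33. Nmrk2, a muscle kinase of NAD synthesis, had the largest difference of the atrophy list at -1.32, from 8.74 to 10.28 in wild-type to 7.57 to 8.67 (adjusted p = 0.248). Fst, the myostatin antagonist follistatin, differed by 0.46 with overlap, and Myod1 by 0.25.

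Clock genes showed separate groups in a larger share than all genes did, with no call. Among 11 clock output genes 0 passed in limma and 6 had an unadjusted p under 0.05, against 11.9% of all genes. The groups did not overlap for 54.5%, 5 lower and 1 higher, against 12.2% of all genes. Dbp, an output transcription factor, was at 11.27, 11.33, 11.03 and 11.08 in wild-type and at 9.90, 10.63 and 10.18 in PWS-IC del muscle (adjusted p = 0.0845). Ciart, a repressor of the clock, was at 7.19, 7.67, 7.43 and 7.52 in wild-type and at 6.62, 6.82 and 6.65 in mutants (adjusted p = 0.0708). Dbp was lowest and Arntl, the activator BMAL1, highest in PWS-IC del 1. Of 12 core clock genes 4 were separate and lower, Per1, Per2, Nr1d1 and Nr1d2, at -0.45, -0.40, -0.57 and -0.10. With Arntl, separate and higher, they made up 41.7% of the list, against 12.2% of all genes. Arntl had the opposite sign, with 8.90, 8.37, 8.84 and 8.65 in wild-type and 10.06, 9.03 and 9.37 in mutants (adjusted p = 0.266). The sources used here do not give the time of day at which tissue was taken, and its part in these values was not tested.

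The activators of the clock bind the E-box CACGTG, which reads the same on both strands. In the 250 bases upstream of a RefSeq start, 6.02% of the 32851 windows held it, and 0.0609% held it 3 times or more. Windows were found for 9 clock output and 11 core clock genes, of which 4 and 2 held an E-box. Some genes have several windows, and by window the counts were 5 of 11 and 2 of 18. The median of these windows was 21 and 24 CG, against 6 over all windows, and the E-box itself contains a CG. The windows of Ciart, at chr3:95882229-95882478 on the minus strand with 3 E-boxes, and of Per1, at chr11:69098699-69098948 on the plus strand with 1, are shown as examples that hold the motif among genes with separate groups. Capitals mark the E-box, with GRCm38.p6 coordinates. A match is a run of letters. The second window of Per1 and the windows of Dbp, Nr1d1, Nr1d2, Arntl, Usp2 and Nfil3, whose groups were also separate, held none.
Ciart: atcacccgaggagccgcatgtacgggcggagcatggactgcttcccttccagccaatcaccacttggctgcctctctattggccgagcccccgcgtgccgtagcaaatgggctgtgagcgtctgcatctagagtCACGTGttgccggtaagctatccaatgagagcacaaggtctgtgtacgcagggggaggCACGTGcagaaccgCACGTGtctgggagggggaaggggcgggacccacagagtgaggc
Per1: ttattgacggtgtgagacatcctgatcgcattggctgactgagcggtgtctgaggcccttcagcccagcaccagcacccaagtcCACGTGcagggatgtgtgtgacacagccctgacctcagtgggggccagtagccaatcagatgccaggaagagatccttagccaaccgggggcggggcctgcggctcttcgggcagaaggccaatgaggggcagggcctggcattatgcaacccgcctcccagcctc

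Of 24 immediate early genes 17 had negative differences, against 45.6% of all genes, and the median was -0.16. In limma 0 passed, and 7 had an unadjusted p under 0.05, against 11.9% of all genes. Dusp1, a phosphatase of MAP kinases, was at 11.47 to 11.84 in wild-type and 10.55 to 11.06 in PWS-IC del muscle (adjusted p = 0.0893). Members did not share a direction. Ccn2, a matrix-bound growth factor, was at 8.53 to 9.22 and 9.46 to 10.00, while its relative Ccn1 was at 9.62 to 9.84 and 8.98 to 9.47. Fosl2, a subunit of AP-1, differed by 0.54 (adjusted p = 0.109).

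Stress and growth lists held no call. In heat shock, unfolded protein, interferon, cytosolic ribosome and cell cycle lists 0 of 18, 27, 24, 26 and 16 tested members passed in limma. Of these, 3, 2, 1, 1 and 4 had an unadjusted p under 0.05, against 11.9% of all genes. Hspb7, a small heat shock protein of muscle, differed by -0.66 with overlap and Ddit3, a stress factor of the endoplasmic reticulum, by -0.44 without overlap (adjusted p = 0.294). Of 24 interferon response genes 20 had positive differences, 83.3% against 54.2% of all genes, and the median was 0.16. Their score overlapped, at -0.333 to 0.161 in wild-type arrays and -0.025 to 0.168 in mutants. Irf9, which carries the interferon signal to the nucleus, was the only member without overlap, at 6.88 to 7.23 and 7.37 to 7.43. That was 4.17% of the list, against 12.2% of all genes. Pcna, the clamp of DNA replication, was at 9.77 to 10.02 in wild-type arrays and 10.17 to 10.43 in mutants (adjusted p = 0.206).

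Vessel wall transcripts were separate between the genotypes more often than genes at large, with no call. Of 13 tested pericyte and smooth muscle markers 11 had negative differences, the median was -0.36, and 6 lay lower in every mutant array, against 5.86% of all genes. Tagln, an actin-binding protein of smooth muscle, was at 8.95, 8.81, 8.75 and 8.88 in wild-type and at 8.32, 8.30 and 7.99 in PWS-IC del muscle (limma, adjusted p = 0.0708). Acta2, smooth muscle actin, was at 11.53, 11.51, 11.32 and 11.37 and at 11.03, 10.85 and 10.72 (adjusted p = 0.0839). Myh11, the smooth muscle myosin, and Rgs5, a pericyte gene, differed by -0.71 and -0.51 without overlap. The summed intensity of the 14 measured markers was 25695 to 29329 in wild-type arrays and 21966 to 23854 in mutants, with 0 members at 0. Des, which fibres also express, takes a large share of that sum and differed by -0.06. The part of vessel cell number in these values was not tested.

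Of 17 endothelial markers 16 had negative differences, against 45.6% of all genes, and the median was -0.26. There were 6 members lower in every mutant array, 35.3% of the list against 5.86% of all genes. The list score was highest in wild-type 2, at 0.30, as was that of pericyte and smooth muscle markers, at 0.29. Vwf, the clotting factor of vessel lining, was at 8.09 to 8.43 in wild-type arrays and 7.51 to 7.85 in mutants (adjusted p = 0.149). Flt1, a receptor of vascular growth factor, was at 9.37 to 9.88 and 9.03 to 9.22. Their summed intensity was 7079 to 8952 in wild-type arrays and 5453 to 7234 in mutants, overlapping at PWS-IC del 1 and lowest in PWS-IC del 3. In this list 0 passed in limma and 7 had an unadjusted p under 0.05, against 11.9% of all genes.

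Of 19 macrophage markers 16 had positive differences, against 54.2% of all genes, and their median, 0.39, was the highest of the lists. In limma 0 passed, and 8 had an unadjusted p under 0.05, against 11.9% of all genes. Ctss, a lysosomal protease, was the only member without overlap, 5.26% of the list against 12.2% of all genes. It was at 8.77 to 9.15 in wild-type arrays and 9.26 to 9.80 in mutants (adjusted p = 0.179). The sums, 7731 to 10096 in wild-type and 8467 to 12675 in PWS-IC del muscle, were highest in PWS-IC del 1 and 2, and Csf1r and Adgre1, which define the lineage, differed by 0.004 and -0.01. Fibroblast and tendon markers were positive in 13 of 15, and Fmod, a matrix proteoglycan, differed by 0.51 without overlap. Of 28 collagen and matrix genes Col24a1 alone passed, and Lox, which crosslinks collagen, was at 8.28 to 8.52 in wild-type arrays and 8.75 to 9.45 in mutants. The lymphocyte list held 0 genes past the threshold in limma and 0 at an unadjusted p under 0.05, as did the Schwann cell and red blood cell lists. Of 9 satellite cell markers 8 had negative differences, with a median of -0.035, and 3 of these had an unadjusted p under 0.05. These were Heyl, Notch3 and Spry1, and Notch3 is also in the list of pericyte and smooth muscle markers. The brain markers, with Gad1 too dim to test, all had negative differences, from -1.18 to -0.13, and overlapped.

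**Figure D5:**
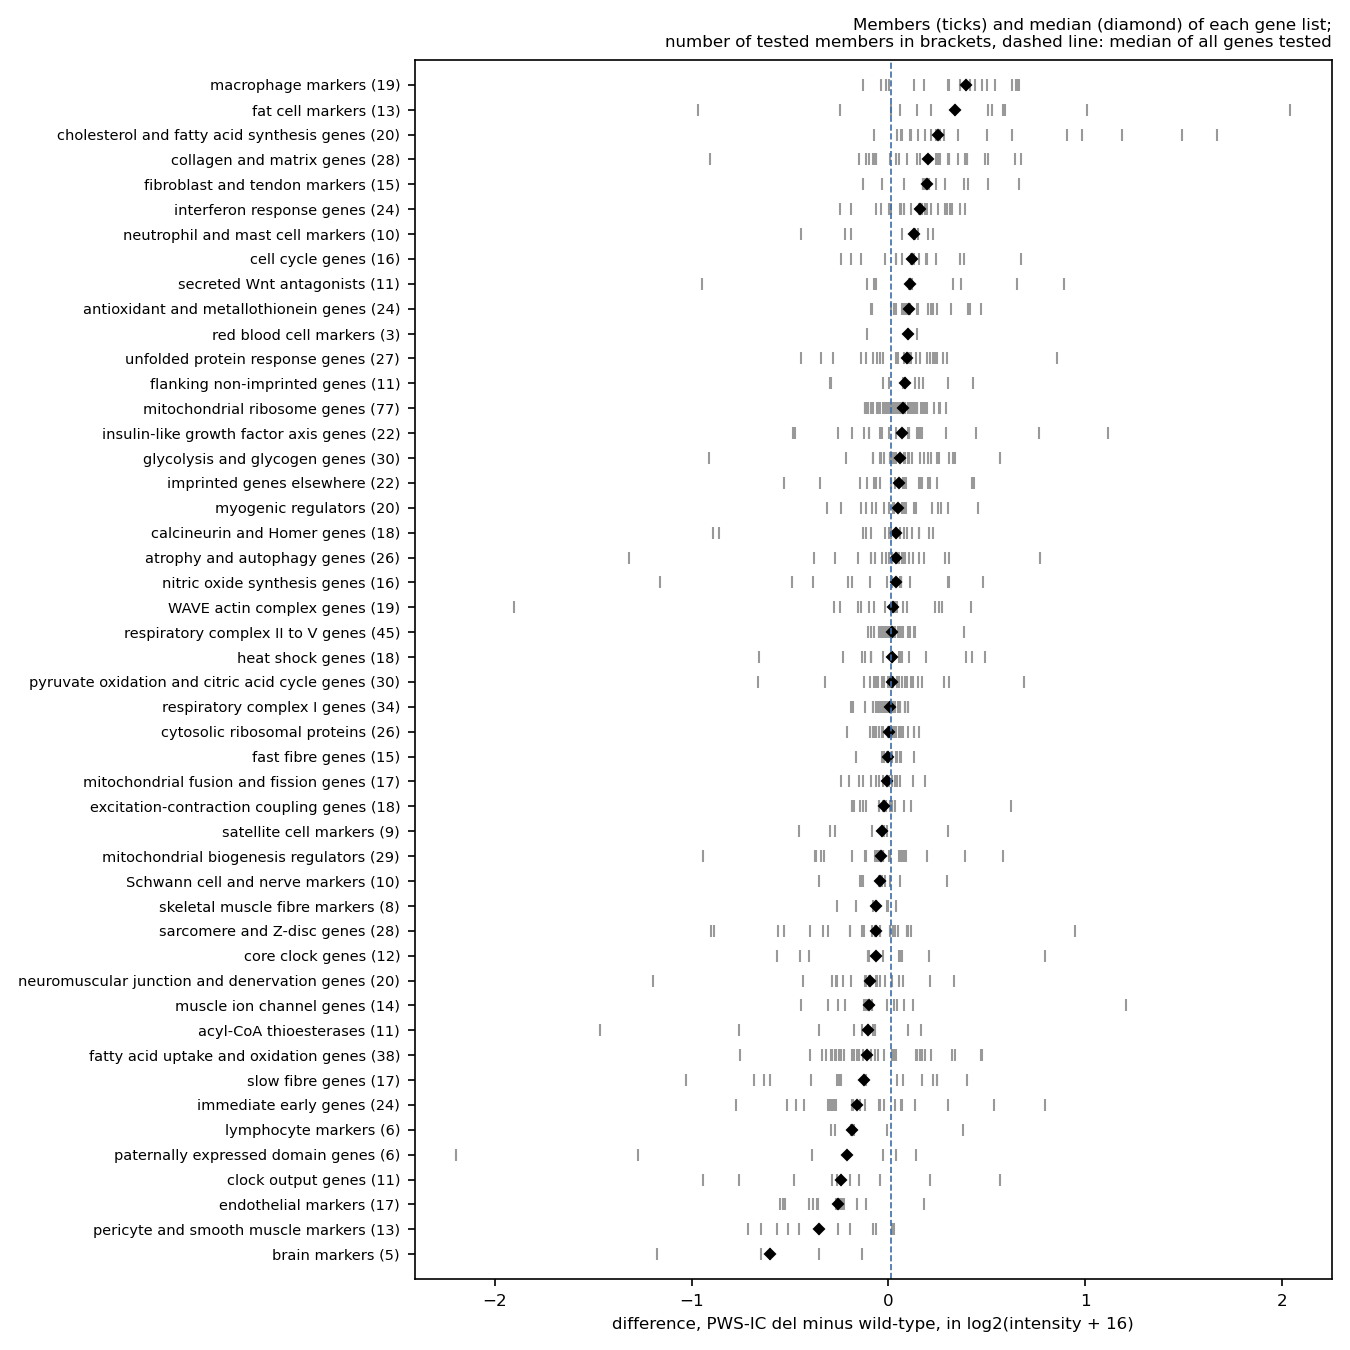
Differences, PWS-IC del minus wild-type in log2(intensity + 16), of the tested members (ticks) and their median (diamond) for each list with at least 3 tested members. The dashed line is the median of all genes tested, 0.015. Macrophage markers lie at the top with 0.39, pericyte and smooth muscle markers near the bottom with -0.36, and the respiratory chain and ribosome lists close to the line.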

How the data were processed

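The authors deposited a linear intensity for each probe set in each array. The submitters' processing notes name PLIER and the Affymetrix Expression Console, and the sources used here give no settings, versions or normalization. The deposited table held 45101 probe sets, 64 of them controls and left out. Platform annotation gave 34945 probe sets 1 symbol, 932 several and 9160 none, and of 18193 genes 18031 matched RefSeq GRCm38.p6, used for names, chromosomes and promoters. Each gene was represented by the brightest, on average over the 7 arrays, of its probe sets with 1 symbol, as log2(intensity + 16). Genes below the 0.25 quantile were not tested. Genotypes were compared in R 4.3.3 with limma 3.58.1 (lmFit, eBayes), 2-sided, with Benjamini-Hochberg adjustment and a threshold of 0.05, and all probe sets likewise. With 3 arrays against 4, the smallest p of an exact permutation test is 0.0286.

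The 49 gene lists, holding 1109 names of which 1008 were measured, and the comparison itself were chosen with earlier results of these data known. Named genes are all past the threshold, the next by p up to 30, measured domain genes, up to 4 members of smallest p per list and defining markers. Others were chosen after their values were seen: Ryr1, Cacna1s, Tfam, Myh7, Csf1r, Adgre1, Fmod, Ppargc1b, Nr1d2, the casein genes and the genes of probe set calls. The fit was tested on simulated data with known changes. The alternatives covered the pseudocount, normalization, filter, choice of probe set, trend, array weights, replicate block, threshold and leaving out arrays; the last of these, without both wild-type 2 and wild-type 4, was chosen after seeing the data.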

Additional observations from a re-analysis of the deposited data

Results flagged for a closer look

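Among the 4 wild-type arrays, 12 of 224 genes looked at and 5 of 49 list scores had 1 array far from the others, by Dixon's ratio of its gap to the whole range at the 95% limit. Chance gives this in about 1 of 20 groups. Wild-type 2 was high in Cyfip2 (ratio 0.852, at 8.89 against 8.15 to 8.26), Rassf9 (0.905), Myh1 (0.831) and Sfrp2 (0.889), and low in Dyrk1a (0.875) and Ppp3ca (0.85). It also stood apart in the scores of slow fibre genes (0.897, low at -1.18), imprinted genes elsewhere (0.848), nitric oxide synthesis genes (0.962) and collagen and matrix genes (0.866). Wild-type 3 was high in Ddah1 (0.956, at 9.34 against 9.19 to 9.20), Ulk1 (0.916) and Atp5k (0.914). Wild-type 1 was high in Eci2 (0.874), Oma1 (0.881) and the score of core clock genes (0.909), and low in Casq1 (0.866). For Cyfip2 and Ddah1 the array that stood apart lay on the side away from the mutants, and both calls passed without it.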

How the results depend on the processing

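In the muscle genotype comparison the 17 genes called became 31 with a pseudocount of 64, 44 after quantile normalization, 8 with no filter, 26 with a filter at the 0.5 quantile, 57 with an intensity trend, 1835 with array quality weights, 87 at a threshold of 0.1 and 4 without both wild-type 2 and wild-type 4. The weights gave PWS-IC del 2 a weight of 5.91 and the others 0.34 to 1.46. With a pseudocount of 1, median centring, the probe set chosen over all 14 arrays or the mean of probe sets, there were 17, 25, 16 and 16. Leaving out single arrays gave 6 to 24. In the muscle probe set comparison the 48 called became 29 with no filter and 12 without both arrays, and 16 to 68 without single arrays. The labels do not say whether the replicate numbers pair the samples, and the values did not settle it. Deviations of same-numbered arrays correlated at 0.069, 0.535 and 0.018, and not every array correlated best with its own number. With the replicate number as a fixed block there were 2 genes and 12 probe sets, and as a random block 69 genes. Of the values of named genes under all alternatives, 109 dropped from past the threshold to short of it and 200 the reverse. Changes of sign were counted only for genes past the threshold in the main fit or the alternative, and there were 0. Of list medians under the alternatives, 28 moved by more than the spread between arrays and 952 did not. The causes were not tested. With 7 arrays, precision is limited.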

Other observations

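These genes were chosen after their values were seen. The largest positive differences over all genes tested were short of the threshold in limma. Cyp2e1, Retn, Wfdc21 and Acsm3 had the largest ones, and Sytl2 is given for its smaller p. Cyp2e1, a cytochrome P450 of liver and fat, was at 8.47, 10.20, 9.72 and 9.06 in wild-type and at 12.30, 12.73 and 10.41 in PWS-IC del muscle, a difference of 2.45 (adjusted p = 0.178). Retn, the fat cell hormone resistin, was at 7.21, 11.27, 8.76 and 8.08 in wild-type and at 11.27, 12.04 and 9.31 in mutants, a difference of 2.04 with overlap (adjusted p = 0.443). Wfdc21, a secreted protein, was at 6.42 to 6.65 in wild-type, 9.38 and 9.62 in PWS-IC del 1 and 2, and 6.65 in PWS-IC del 3. Acsm3, a medium-chain acyl-CoA synthetase, followed the same arrays, with 8.12 and 8.41 in PWS-IC del 1 and 2 and 5.82 in PWS-IC del 3. Sytl2, a vesicle protein, was at 6.61 to 7.55 in wild-type and 8.40 to 8.99 in all mutants (adjusted p = 0.0755). The fat cell score was highest in PWS-IC del 2, wild-type 2 and PWS-IC del 1, and its part in these values was not tested.

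Among fibre genes, Myh2, the myosin of oxidative fast fibres, was at 13.80, 12.92, 13.79 and 13.67 in wild-type and at 12.81, 12.66 and 12.20 in mutants (limma, adjusted p = 0.179). Bdh1, an enzyme of ketone body use, was at 9.61, 8.42, 9.53 and 9.41 and at 8.37, 7.91 and 7.57. In both, wild-type 2 was the wild-type array nearest the mutants. The milk protein genes of wild-type 2 included Csn2 at 9.28, against 4.42 to 4.87 in the other arrays, and Wfdc18, a mammary protein, at 11.16 against 6.81 to 7.47. Wap and Lalba, which also encode milk proteins, were at 7.71 and 6.42 there, and at 7.18 to 7.69 and 5.68 to 6.17 in the other arrays.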
